A study of Saccharomyces cerevisiae with 4 samples.

Results

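The 37 cell wall genes described here encode the mannoproteins, polysaccharide synthases, remodelling enzymes and flocculins of the budding yeast wall, with 1 surface protease and 2 wall-integrity regulators. They were chosen by systematic identifier, on what their products do, and make up 37 of the 6688 genes in the deposited tables. All 37 passed the low-count filter, as did 6422 genes in all. The study measured polyadenylated RNA of Saccharomyces cerevisiae by RNA-seq in 2 strains, wild type (WT) and nhp6ab, with 2 libraries each. Cells of both strains were in exponential growth in YPD, which is rich medium with glucose. The name nhp6ab is the usual one for a strain that lacks NHP6A and NHP6B, which encode small HMG-box proteins that bend DNA and work with the histone chaperone FACT. Strain background, other markers, the alleles used and the number of isolates are not given in the labels, nor whether replicates were separate cultures. The p-values therefore cover the spread between these 4 libraries alone, and that spread may be technical.

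The yeast wall is a mesh of glucan chains with a little chitin, covered by an outer layer of heavily mannosylated proteins. Most of these proteins are held through the remnant of a glycosylphosphatidylinositol (GPI) anchor, and the PIR proteins (named for their internal repeats) are bound to glucan directly. When the wall is weakened, sensors of the Wsc and Mid2 type signal through Rho1, Pkc1 and a kinase cascade to Slt2, which activates the transcription factor Rlm1 and with it many wall genes.

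The deposited expected counts summed to between 22622592 and 29115870 per library. Levels are given as counts scaled to a common library total (CPM) with TMM factors, which set most genes to a common level between libraries, and fold changes are nhp6ab over WT. NHP6A fell from 122.5 and 129.6 CPM in WT to 11.1 and 12.0 CPM in nhp6ab, and NHP6B from 80.01 and 86.0 to 33.4 and 32.6 CPM, so transcript of both genes was still counted in the mutant, NHP6B at 39.8% of WT. The labels do not say which bases were removed. Genes specific to alpha cells were present in all libraries (summed level of 4 genes 1456 to 2306 CPM), whereas the 7 a-specific genes summed to 43.4 to 50.5 CPM, with the a-pheromone genes MFA1 and MFA2 at 0.19 to 0.38 CPM. Among the alpha-specific genes, 3 of 4 were lower in nhp6ab, as were 25.0% of all genes tested.

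Cell wall genes moved in both directions. By edgeR's quasi-likelihood test, with Benjamini-Hochberg adjustment over all 6422 genes and a call at an adjusted p under 0.05, 12 of the 37 (32.4%) were higher in nhp6ab and 12 (32.4%) were lower. Over all genes tested, 24.5% were called higher and 25.0% lower, or 49.5% in either direction, against 24 members (64.9%). The libraries of the strains did not overlap for 30 members (81.1%), 17 of them higher (45.9%) and 13 lower (35.1%) in nhp6ab. Over all genes the same held for 77.5%, with 38.9% higher and 38.7% lower. Most changes were modest. YGP1 was the 1 member that was called and changed at least 2-fold, as were 4.44% of all genes. The median log2 fold change of the members was 0.09, and that of all genes tested was 0.01. It was -0.01 without nhp6ab replicate 1, which was above nhp6ab replicate 2 for 26 of the 37 members, as WT replicate 1 was above WT replicate 2 for 29. Leaving out each library in turn gave 10 to 17 members higher and 8 to 14 lower.

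**Figure D1:**
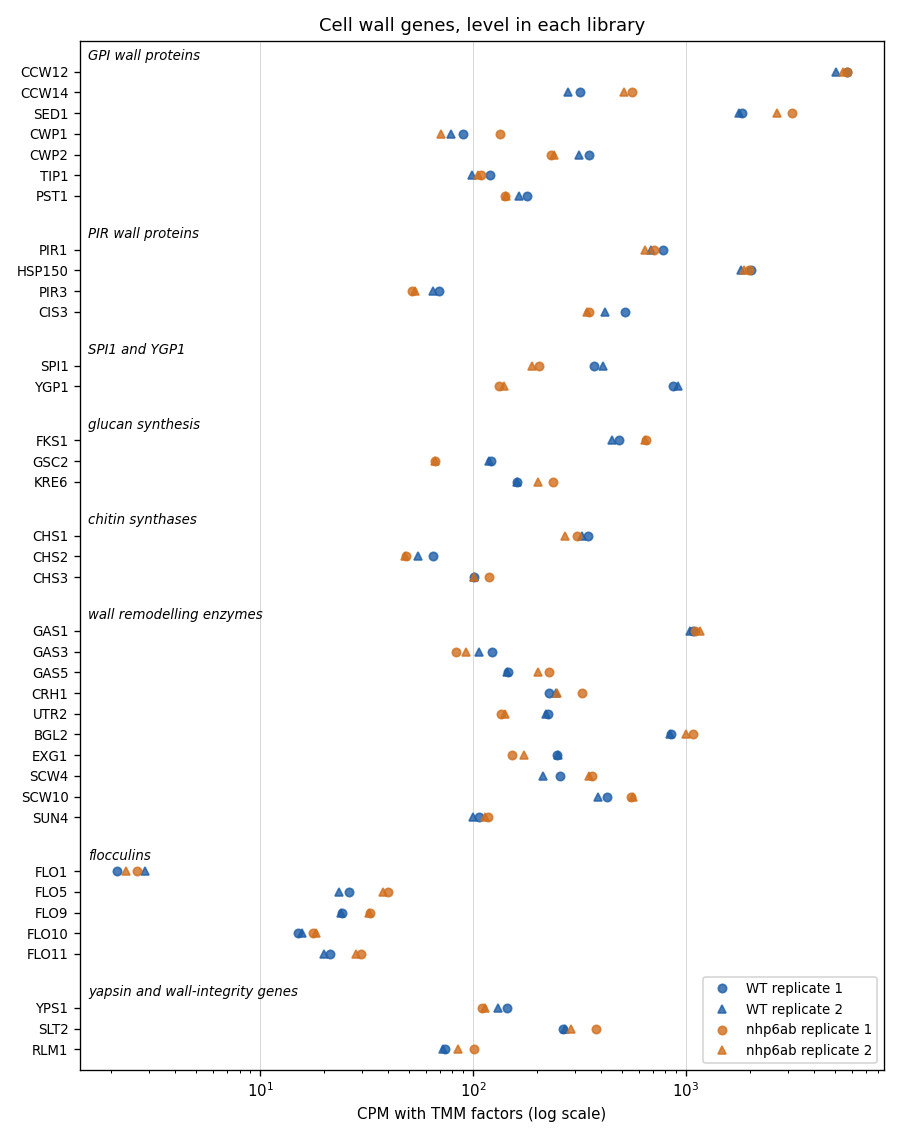
Levels of the 37 cell wall genes in each library, in CPM with TMM factors on a log axis, grouped by class, with WT libraries in blue and nhp6ab libraries in orange. Levels run from 2.12 CPM for FLO1 to 5721 CPM for CCW12, and the widest separation between strains is that of YGP1.

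**Figure D2:**
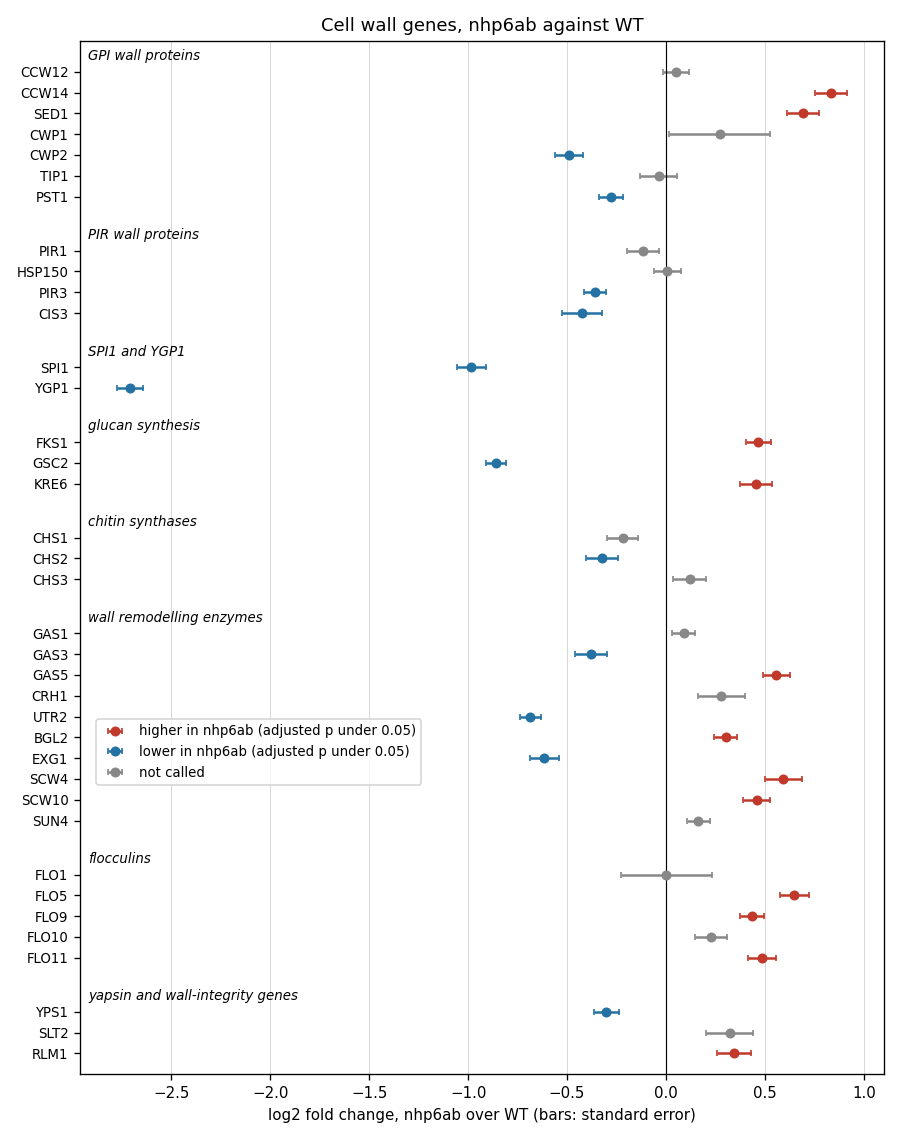
Log2 fold change of each cell wall gene, nhp6ab over WT, with bars for the standard error and colours for the call at an adjusted p under 0.05 over 6422 genes (n = 2 libraries per strain). Of the 37, 12 were higher, 12 were lower and 13 were not called, and most classes hold genes of more than 1 kind.

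The deposited TPM values, which correct for transcript length, let levels of different genes be compared. The 37 genes together held 20747 and 19656 TPM in the WT libraries and 25809 and 24967 TPM in the nhp6ab libraries, that is, 2.07, 1.97, 2.58 and 2.50% of all transcripts. The sum was higher in both nhp6ab libraries, with a ratio of means of 1.26. An exact two-sided permutation test gave p = 0.333, the smallest that 2 against 2 libraries allow. The median over all genes also rose, by 0.28 on the log2(TPM + 1) scale, so sums in TPM and fold changes with TMM factors are not on the same scale. Without a spike-in, neither gives an amount per cell.

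CCW12, a small and abundant GPI wall protein, made up much of the total. It held 54.7 and 53.1% of the members' summed TPM in WT and 54.0 and 55.0% in nhp6ab. The order of the next genes differed between strains. In WT the levels that followed were those of SED1 (1350.3 and 1366 TPM), HSP150 (1212 and 1136 TPM) and CWP2 (1045 and 976 TPM), and these pairs did not overlap each other. Below them, BGL2 (681 and 696 TPM) was above YGP1 (611 and 672 TPM), and SPI1 (655 and 747 TPM) overlapped with each of them. In nhp6ab, SED1 stood at 2884 and 2494 TPM, BGL2 at 1061 and 1019 TPM, and YGP1 at 115 and 125 TPM.

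The GPI wall proteins were split, with 2 of 7 higher, 2 lower and 3 not called, where 24.5% of all genes were higher and 25.0% lower. Coordinates are those of the coding sequence in the R64 genome. CCW14 (YLR390W-A, chrXII:903724-904440, plus strand), an inner wall protein, had 318 and 280.1 CPM in the WT libraries and 557 and 511 CPM in the nhp6ab libraries. It rose 1.78-fold (log2 0.84, SE 0.08, adjusted p = 0.000278), with both nhp6ab libraries well above both of WT. SED1 (YDR077W, chrIV:600793-601809, plus strand), a structural protein that is plentiful in stressed and resting cells, had 1826 and 1777 CPM in WT and 3164 and 2663 CPM in nhp6ab. It rose 1.62-fold (log2 0.69, SE 0.08, adjusted p = 0.000645), and the gap between the nhp6ab libraries was smaller than that between the strains. These genes thus rose by similar factors from very different levels.

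CWP2 (YKL096W-A, chrXI:259253-259531, plus strand), a major mannoprotein of the wall, went the other way. It had 349.6 and 314 CPM in WT and 232 and 239.9 CPM in nhp6ab, with no overlap, and fell by 0.49 on the log2 scale (SE 0.07, adjusted p = 0.0014). PST1, a wall protein whose transcript rises when the wall is damaged, had 178 and 165 CPM in WT and 141 and 142 CPM in nhp6ab. It fell by 0.28 on the log2 scale (SE 0.06, adjusted p = 0.00787), a call that was lost without WT replicate 1 (adjusted p = 0.0661). With library size alone in place of TMM factors its log2 change was -0.07, and on the log2(TPM + 1) scale it was 0.02.

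CWP1 (YKL096W, chrXI:261132-261851, plus strand) lies next to CWP2 on chromosome XI, in the same orientation, and its product is found at the birth scar. Its levels were 89.8 and 79.0 CPM in WT and 133 and 70.9 CPM in nhp6ab, so the WT libraries lay between the nhp6ab libraries. No change was called (log2 0.27, SE 0.25, adjusted p = 0.403). The result turned on the library: without nhp6ab replicate 2 it was called higher (log2 0.66, adjusted p = 0.000188), and without nhp6ab replicate 1 lower (log2 -0.26, adjusted p = 0.0288). CCW12 (5721 and 5063 CPM against 5701 and 5465) and TIP1, a mannoprotein of cold-shocked cells (120.1 and 98.7 CPM against 109 and 105), overlapped between strains and were not called (log2 0.05 and -0.04). Without WT replicate 2 CCW12 stood at -0.04, and without WT replicate 1 TIP1 stood at 0.11.

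Of the 4 PIR proteins, with TMM factors 2 were lower and 0 were higher by edgeR (0 at an unadjusted p under 0.05, and 0 by DESeq2). Over all genes, 25.0% were lower and 24.5% higher. The direction of the class depended on the scaling. CIS3, the family member also called PIR4, had 517 and 414 CPM in WT and 350.3 and 344 CPM in nhp6ab. Both nhp6ab libraries were below both of WT, and it fell by 0.43 on the log2 scale (SE 0.10, adjusted p = 0.0126). PIR3 had 69.3 and 64.9 CPM in WT and 51.5 and 53.2 CPM in nhp6ab, again without overlap, and fell by 0.36 on the log2 scale (SE 0.06, adjusted p = 0.00227). Both calls were lost with library size alone (adjusted p = 0.0899 for PIR3 and 0.0939 for CIS3) and in TPM, where PIR3 stood at 53.3 and 51.9 TPM in WT and at 48.9 and 51.9 TPM in nhp6ab.

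HSP150, a heat-induced PIR protein that is also secreted, had 2015 and 1818 CPM in WT and 1987 and 1867 CPM in nhp6ab (log2 0.01, SE 0.07, adjusted p = 0.934). With library size alone and on both TPM scales, however, HSP150 was called higher. PIR1 had 776 and 688 CPM in WT and 711 and 641 CPM in nhp6ab (log2 -0.11, SE 0.08, adjusted p = 0.278). Each of these genes overlapped between strains. The 4 genes sit in 2 neighbouring pairs, PIR1 and PIR3 transcribed away from each other on chromosome XI, and HSP150 and CIS3 towards each other on chromosome X. With TMM factors, in each pair 1 gene was called and 1 was not. The difference within a pair was not tested.

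SPI1 and YGP1 fell most among the 37. YGP1 (YNL160W, chrXIV:336545-337609, plus strand), a secreted glycoprotein related to the sporulation protein Sps100 and known to rise when glucose runs short, had 866 and 917 CPM in WT and 133 and 139.97 CPM in nhp6ab. The nhp6ab libraries were far below those of WT, a 6.54-fold decrease (log2 -2.71, SE 0.07, adjusted p = 2.07e-06). SPI1 (YER150W, chrV:468370-468816, plus strand), a GPI wall protein that guards against weak acids and is plentiful late in growth, had 371 and 407 CPM in WT and 205 and 188 CPM in nhp6ab. It fell 1.98-fold (log2 -0.98, SE 0.07, adjusted p = 9.79e-05), and the strains did not overlap. In TPM the pair summed to 1265 and 1419 in WT and to 561 and 546 in nhp6ab. It was the 1 class whose summed TPM was lower in nhp6ab, with a ratio of 0.413. As the class holds only the members that fell most, this sum is no separate result. SPI1, though a GPI protein, is not counted among the 7 GPI wall proteins above.

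Both are counted among genes of stress and late growth, many of which the factors Msn2 and Msn4 control. In a list of 20 other such genes, 10 were lower, 5 higher and 5 not called, with a median log2 change of -0.28. The shares over all genes were 25.0% lower and 24.5% higher. HSP26, a small heat shock protein, had 447 and 538 CPM in WT and 36.4 and 39.7 CPM in nhp6ab (log2 -3.69). GPH1, glycogen phosphorylase, and HOR7, a small protein induced by osmotic stress, had log2 changes of -1.44 and -1.35. The summed level of the list was 13575 and 14236 CPM in WT and 14273 and 12628 CPM in nhp6ab, so the strains overlapped. GLK1, a glucokinase that was higher in nhp6ab, had the highest WT level in the list (5540 and 6054 CPM in WT, 7317 and 6403 CPM in nhp6ab). HSP42, TPS1 and HXT5 were also called higher (log2 0.40, 0.53 and 0.66). Without GLK1, a choice made after its values were seen, the sum was 8036 and 8182 CPM in WT and 6956 and 6225 CPM in nhp6ab, lower in both nhp6ab libraries.

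The promoters of these genes are shown because the stress response element, AGGGG or CCCCT on the other strand, is the known site of Msn2 and Msn4. Windows of 300 bases, from 400 to 101 bases before the start codon, were read from the RefSeq genome R64. They are written 5′ to 3′ on the gene's strand with matches in capitals.
SPI1 (chrV:467970-468269, plus strand): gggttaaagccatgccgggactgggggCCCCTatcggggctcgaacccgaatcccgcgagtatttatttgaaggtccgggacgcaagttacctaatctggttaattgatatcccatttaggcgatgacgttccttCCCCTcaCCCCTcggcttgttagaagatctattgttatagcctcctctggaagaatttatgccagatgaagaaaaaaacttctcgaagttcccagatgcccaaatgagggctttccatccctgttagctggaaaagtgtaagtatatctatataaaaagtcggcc
YGP1 (chrXIV:336145-336444, plus strand): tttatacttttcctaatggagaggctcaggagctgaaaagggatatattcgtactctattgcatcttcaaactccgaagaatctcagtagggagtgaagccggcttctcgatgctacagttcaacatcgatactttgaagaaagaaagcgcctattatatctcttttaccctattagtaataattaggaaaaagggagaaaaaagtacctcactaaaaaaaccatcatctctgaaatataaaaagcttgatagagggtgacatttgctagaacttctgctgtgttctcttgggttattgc
SPI1 held 3 matches, whose first bases lie 373, 265 and 258 bases before the start codon, and YGP1 held none in its window. The element stood in 23.5% of 5984 windows of the same length genome-wide and in 5 of the 37 members (13.5%), namely SPI1, SED1, PIR3, CIS3 and CHS2. Of these, 4 were lower and SED1 was higher. A match describes the letters and is not evidence of binding, and a window without one says nothing of the factor.

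The genes for glucan synthesis included a pair of alternative subunits that moved apart. FKS1 (YLR342W, chrXII:809997-815627, plus strand) encodes the catalytic subunit of glucan synthase in growing cells. It had 486 and 447 CPM in WT and 649 and 641 CPM in nhp6ab. It rose 1.38-fold (log2 0.47, SE 0.06, adjusted p = 0.00118), with both nhp6ab libraries above both of WT. GSC2 (YGR032W, chrVII:548264-553951, plus strand), also called FKS2, encodes the alternative subunit known to be induced by wall stress, in poor carbon sources and in sporulation. It had 121 and 119 CPM in WT and 66.5 and 66.1 CPM in nhp6ab. The libraries of each strain were nearly equal, and it fell 1.81-fold (log2 -0.86, SE 0.05, adjusted p = 4.35e-05).

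In TPM, GSC2 made up 19.8 and 20.9% of the pair's transcripts in the WT libraries and 9.20 and 9.26% in the nhp6ab libraries, with no overlap between strains (exact two-sided permutation p = 0.333, the smallest possible). The share comes from values within a library, so it does not depend on how libraries are scaled against each other. KRE6 (YPR159W, chrXVI:857583-859745, plus strand), which takes part in making the branched glucan that links mannoproteins to the mesh, had 159.9 and 160.7 CPM in WT and 237 and 203 CPM in nhp6ab. It rose 1.37-fold (log2 0.45, SE 0.08, adjusted p = 0.00345), and its nhp6ab libraries were further apart than its WT libraries. Without WT replicate 1 its adjusted p was 0.0502.

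Chitin synthases changed little. CHS2 (YBR038W, chrII:311898-314789, plus strand), which lays the primary septum at division, had 65.0 and 55.2 CPM in WT and 48.3 and 47.7 CPM in nhp6ab. It fell by 0.32 on the log2 scale (SE 0.08, adjusted p = 0.0148), and the call was lost without WT replicate 1 (adjusted p = 0.0729) and with library size alone (adjusted p = 0.269). CHS1, the repair enzyme of daughter cells, had 347 and 324 CPM in WT and 306 and 270.02 CPM in nhp6ab. Its strains did not overlap, but the change was not called (log2 -0.22, SE 0.08, adjusted p = 0.0528), although it was without nhp6ab replicate 1 (adjusted p = 0.0157), with DESeq2 (adjusted p = 0.0277) and with upper quartile factors (adjusted p = 0.0361). On the log2(TPM + 1) scale its log2 change was 0.07.

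CHS3, which makes most of the chitin of the bud neck and lateral wall, had 101 and 100.5 CPM in WT and 119 and 100.4 CPM in nhp6ab. Its nhp6ab replicate 2 was at the WT level, and no change was called (log2 0.12, SE 0.08, adjusted p = 0.259). Without nhp6ab replicate 2 it was called higher (log2 0.24, adjusted p = 0.00962), and without nhp6ab replicate 1 its log2 change was -0.01. Summed over the 3 enzymes, the level was 113 and 109 TPM in WT and 127 and 116 TPM in nhp6ab, and CHS1 held 66.5 and 66.6% of it in WT and 64.0 and 63.7% in nhp6ab.

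**Figure D3:**
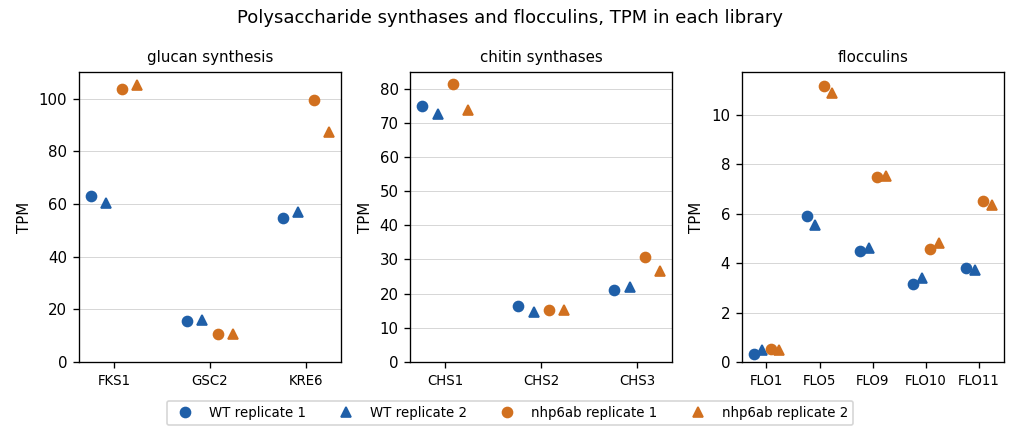
Levels in TPM, a per-length scale, of the glucan synthesis genes, chitin synthases and flocculins in each library. FKS1 is higher and GSC2 lower in both nhp6ab libraries, the chitin synthases lie close together, and FLO5, FLO9, FLO10 and FLO11 are higher in both nhp6ab libraries while FLO1 stays under 1 TPM.

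Of the 10 wall remodelling enzymes, 4 were higher, 3 lower and 3 not called, and none overlapped between strains. Over all genes tested, 24.5% were called higher and 25.0% lower, and 77.5% did not overlap. The Gas family elongates glucan chains at the cell surface. GAS5 (YOL030W, chrXV:268187-269641, plus strand) had 146 and 145 CPM in WT and 227 and 201 CPM in nhp6ab and rose 1.47-fold (log2 0.56, SE 0.07, adjusted p = 0.000759). GAS3, a member for which little activity is known, had 122 and 107 CPM in WT and 83.5 and 92.7 CPM in nhp6ab. It fell by 0.38 on the log2 scale (adjusted p = 0.00826). That call was lost without WT replicate 1 (adjusted p = 0.0814) and with library size alone (adjusted p = 0.141). GAS1, the main enzyme of the family in growing cells, had 1079 and 1040.04 CPM in WT and 1096 and 1160 CPM in nhp6ab. Its libraries were just separate and it was not called (log2 0.09, adjusted p = 0.232). In TPM, GAS1 remained far above GAS5 and GAS3, with 596 and 648 TPM in nhp6ab, where GAS5 had 143 and 130.4 TPM and GAS3 48.5 and 55.3 TPM.

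CRH1 and UTR2 encode related transglycosylases that join chitin to glucan, and of these UTR2 was called lower and CRH1 was not called. UTR2 (YEL040W, chrV:78053-79456, plus strand) had 224 and 219 CPM in WT and 135 and 140.5 CPM in nhp6ab. It fell 1.61-fold (log2 -0.69, SE 0.05, adjusted p = 0.000119), with a wide gap between strains. CRH1 had 227 and 245 CPM in WT and 324 and 249 CPM in nhp6ab. Its nhp6ab replicate 2 was only just above WT, and no change was called (log2 0.28, SE 0.12, adjusted p = 0.091), whereas without that library it was called higher (log2 0.46, adjusted p = 0.00166).

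The soluble and wall-bound glucanases were mixed as well. EXG1 (YLR300W, chrXII:728955-730301, plus strand), the major exoglucanase, had 249 and 250.02 CPM in WT and 152 and 174 CPM in nhp6ab. It fell 1.53-fold (log2 -0.61, SE 0.07, adjusted p = 0.000695). BGL2, an abundant transglucosidase, SCW4 and SCW10, relatives of BGL2 in the wall, all rose. SCW4 had 257 and 213 CPM in WT and 361 and 349.5 CPM in nhp6ab (log2 0.59, SE 0.09, adjusted p = 0.00197). SCW10 had 424 and 387 CPM in WT and 551 and 564 CPM in nhp6ab (log2 0.46, adjusted p = 0.0015). BGL2 had 851 and 837 CPM in WT and 1075 and 1005 CPM in nhp6ab (log2 0.30, adjusted p = 0.00553). SUN4, a SUN-family protein of the septum, had 107 and 99.4 CPM in WT and 117 and 114 CPM in nhp6ab. It was separate between strains but not called (log2 0.16, adjusted p = 0.0546), and it was called without nhp6ab replicate 2 (adjusted p = 0.0467). BGL2, SCW4 and SCW10 thus had 1 direction and EXG1 the other. SCW11, from the list of other glucan genes below, was not called (log2 0.08, adjusted p = 0.248).

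Flocculins are lectins and adhesins that bind cells to each other or to surfaces, and they were expressed at low levels in both strains. Of the 5 genes, 3 were called higher, and none was called lower by edgeR, at an unadjusted p under 0.05 or by DESeq2. Over all genes tested, 24.5% were called higher and 25.0% lower. FLO5 (YHR211W, chrVIII:525392-528619, plus strand) had 26.1 and 23.5 CPM in WT and 39.95 and 37.9 CPM in nhp6ab, and rose 1.57-fold (log2 0.65, SE 0.07, adjusted p = 0.000498). FLO11 (YIR019C, chrIX:389572-393675, minus strand), the adhesin of invasive and filamentous growth, had 21.2 and 20.01 CPM in WT and 29.6 and 28.2 CPM in nhp6ab, and rose 1.40-fold (log2 0.48, SE 0.07, adjusted p = 0.00161). FLO9 had 24.2 and 24.0 CPM in WT and 32.9 and 32.3 CPM in nhp6ab, and rose 1.35-fold (log2 0.43, SE 0.06, adjusted p = 0.00128). For these 3 genes both nhp6ab libraries were above both of WT, as for 38.9% of all genes tested. FLO10 had 15.0 and 15.7 CPM in WT and 17.7 and 18.2 CPM in nhp6ab, separate but not called (log2 0.23, adjusted p = 0.0547). FLO1 had 54, 61, 81 and 74 counts, or 2.12 and 2.89 CPM in WT and 2.63 and 2.35 CPM in nhp6ab, and its strains overlapped (log2 0.00, SE 0.23, adjusted p = 0.993).

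Reads of some flocculins cannot be assigned with certainty. Of the 50-base stretches of the coding sequence, 49.8% in FLO1, 63.4% in FLO9 and 25.4% in FLO5 also occurred elsewhere in the genome, including the other genes of these 3, and FLO1 and FLO9 aligned at 94.9% identity over 2528 bases. The split between these genes is therefore an estimate by RSEM, and their single values are uncertain. Taken as 1 quantity, FLO1, FLO5 and FLO9 summed to 52.4 and 50.4 CPM in WT and to 75.5 and 72.6 CPM in nhp6ab, a log2 ratio of means of 0.53. FLO10 and FLO11 shared no such stretch with another gene. Internal repeats were long, with 28.0% of 50-base stretches of FLO11 occurring more than once within it.

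In TPM the WT order was FLO5 (5.92 and 5.54), FLO9 (4.47 and 4.60), FLO11 (3.78 and 3.71), FLO10 (3.14 and 3.41) and FLO1 (0.33 and 0.47), and no neighbouring pair overlapped, though the values of FLO5, FLO9 and FLO1 carry the uncertainty above. The 5 genes summed to 17.6 and 17.7 TPM in WT and 30.3 and 30.1 TPM in nhp6ab, a ratio of 1.71. All lie within 46.2 kb of a chromosome end, FLO10 nearest at 17.0 kb. Of 17 other genes that regulate them, 6 were higher (against 24.5% of all genes), 3 lower (against 25.0%) and 8 not called. TEC1, an activator of FLO11 and filamentous growth, fell by 1.06 on the log2 scale (66.6 and 64.1 CPM in WT, 30.6 and 32.2 CPM in nhp6ab). The repressors SFL1 and CYC8 rose (log2 0.43 and 0.47). So in nhp6ab FLO11 was higher, its activator TEC1 lower and its repressor SFL1 higher. MSS11, another regulator in the list, rose with FLO11 (log2 0.37), and FLO8 was not called (log2 0.15). The median log2 change of the list was 0.06, and the part of these regulators in the level of FLO11 was not tested.

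YPS1, SLT2 and RLM1 belong to the surface protease family and the wall-integrity pathway. YPS1, a GPI-anchored aspartyl protease (yapsin) that is itself induced by wall stress, had 144 and 131 CPM in WT and 110.4 and 113 CPM in nhp6ab. It fell by 0.30 on the log2 scale (SE 0.06, adjusted p = 0.00721), a call lost without WT replicate 1 (adjusted p = 0.0669) and with library size alone (adjusted p = 0.282). RLM1 (YPL089C, chrXVI:379120-381150, minus strand) had 73.8 and 72.3 CPM in WT and 101 and 84.7 CPM in nhp6ab. Both nhp6ab libraries were above WT, and it rose by 0.35 log2 units (SE 0.09, adjusted p = 0.0144), a call lost without WT replicate 1 (adjusted p = 0.0997) or WT replicate 2 (adjusted p = 0.115). SLT2 (YHR030C, chrVIII:168890-170344, minus strand), the kinase that activates Rlm1, had 264 and 269 CPM in WT and 378 and 289 CPM in nhp6ab. It was separate but not called (log2 0.32, SE 0.12, adjusted p = 0.0572). Without nhp6ab replicate 2 it was called higher (log2 0.50, adjusted p = 0.000795).

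A list of 22 other wall-integrity genes was counted, among them sensors, phosphatases and the genes SWI4 and SWI6. Not all of these act upstream of Slt2. By edgeR 11 were higher, SWI4 and SWI6 among them, against 24.5% of all genes, and 0 lower, against 25.0%. The other 11 were not called, and the median log2 change of the list was 0.17. Without WT replicate 1, and likewise without WT replicate 2, the number higher was 6, and without nhp6ab replicate 2 the number lower was 1. At an unadjusted p under 0.05, 1 was lower (SDP1, a phosphatase that acts on Slt2, named after its value was seen), and by DESeq2 0 were. The sensor gene WSC3 had 21.3 and 19.3 CPM in WT and 51.5 and 45.7 CPM in nhp6ab and rose by 1.26 log2 units (SE 0.08, adjusted p = 6.56e-05). The sensor gene WSC2 and ROM1, an exchange factor for Rho1, rose by 0.57 and 0.56 log2 units. RNA levels do not report the activity of the kinases.

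The DNA element to which Rlm1 binds, CTANNNNTAG, reads alike on both strands. It occurred in the windows of 11 of the 37 genes (29.7%) and in 5.53% of 5984 windows genome-wide. At least 1 match of each gene is shown, though not every match, in capitals with 10 bases on either side, first for the 5 genes called higher, then for the 3 called lower, then for the 3 not called.
CCW14 (chrXII:903495-903524, plus strand): cggaaaattaCTATTTATAGaagcattgga
GAS5 (chrXV:268054-268083, plus strand): tttgcttataCTATAAATAGgaaggtccct
BGL2 (chrVII:1059037-1059066, minus strand): tcaagatagcCTACCCATAGctcttaccat
BGL2 (chrVII:1058924-1058953, minus strand): atatgcagttCTATTTTTAGtaaaagaaac
RLM1 (chrXVI:381439-381468, minus strand): gagatgaaagCTAATAATAGaaacagctcg
FLO5 (chrVIII:525035-525064, plus strand): agctacacatCTATGCGTAGatcgcttaac
FLO5 (chrVIII:525135-525164, plus strand): ctagtagcttCTATGGATAGaatggaaata
GSC2 (chrVII:547918-547947, plus strand): aactggtgtgCTAAGAATAGagtttcataa
PST1 (chrIV:563212-563241, plus strand): ttacgagtctCTAAAAATAGcgtaggcaca
PIR3 (chrXI:144111-144140, plus strand): gattagcaaaCTAATTATAGatcaaaggcc
CWP1 (chrXI:260736-260765, plus strand): tacgtcataaCTAAAAATAGcgttagccac
HSP150 (chrX:120216-120245, plus strand): acattttgagCTAAATTTAGattttggtca
FLO1 (chrI:203011-203040, plus strand): ttgttggatgCTAAATTTAGcaaaagtctt
The genes with a match had a median log2 change of 0.27, and that of all 37 members was 0.09. The value of 0.27 is that of CWP1, which was not called and whose direction turned on the nhp6ab library. Those that rose were CCW14, GAS5, BGL2, RLM1 and FLO5, and those that fell were GSC2, PST1 and PIR3. PST1 and CWP1 carried the same element letter for letter, and PST1 fell while CWP1 was not called. The upstream match of BGL2 lies within the neighbouring gene UPA1.

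The full windows of CCW14 and GSC2 are shown because both hold a single Rlm1 element while the genes moved in opposite directions.
CCW14 (chrXII:903324-903623, plus strand): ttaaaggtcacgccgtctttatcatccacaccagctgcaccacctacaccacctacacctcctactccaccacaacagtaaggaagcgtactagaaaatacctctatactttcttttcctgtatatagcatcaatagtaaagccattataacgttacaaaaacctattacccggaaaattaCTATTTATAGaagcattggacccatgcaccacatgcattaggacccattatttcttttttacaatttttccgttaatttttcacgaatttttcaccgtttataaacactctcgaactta
GSC2 (chrVII:547864-548163, plus strand): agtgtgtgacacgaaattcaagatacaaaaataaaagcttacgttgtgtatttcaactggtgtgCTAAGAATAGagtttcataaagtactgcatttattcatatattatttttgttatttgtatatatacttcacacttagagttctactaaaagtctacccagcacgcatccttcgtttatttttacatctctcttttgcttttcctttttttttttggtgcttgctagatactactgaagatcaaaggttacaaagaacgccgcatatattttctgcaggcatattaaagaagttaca
The first base of the element lies 219 bases before the start codon in CCW14 and 336 bases in GSC2. The first 81 bases of the CCW14 window lie within the gene ECM19. The Swi4 element CGCGAAA, or TTTCGCG on the other strand, stood in 4.55% of all windows and in 7 members (18.9%), of which 1 was higher, 3 lower and 3 not called. These were FLO5, then CWP2, GAS3 and UTR2, then CCW12, GAS1 and SUN4. ACGCGT, the Mbp1 element, stood in 3.96% of windows and in SCW10 (higher), CHS3 and FLO10 (not called).

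Genes that serve the wall from elsewhere in the cell were counted in the same fit, in lists chosen with earlier results of these data known. Beside each of these lists, and those of the cell cycle below, stand the shares over all genes tested, 24.5% higher and 25.0% lower. Among 20 other genes of glucan assembly, 8 were higher, 3 lower and 9 not called. SKN1, a relative of KRE6, had 88.05 and 84.1 CPM in WT and 156 and 149.8 CPM in nhp6ab and rose by 0.83 log2 units. KRE1, a wall protein of glucan assembly, and ROT1, a chaperone of the endoplasmic reticulum, rose by 0.56 and 0.48. KRE6, SKN1 and KRE1 thus each rose, and a joint change was not tested.

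Among 27 mannosylation genes, 13 were higher, 3 lower and 11 not called, with a median log2 change of 0.15. OCH1, which starts the outer mannan chain in the Golgi, had 40.6 and 41.7 CPM in WT and 68.7 and 72.9 CPM in nhp6ab and rose by 0.78. VRG4, the Golgi transporter of GDP-mannose, rose by 0.56. MNN1, which adds the terminal mannose, had 42.7 and 39.9 CPM in WT and 15.9 and 18.05 CPM in nhp6ab and fell by 1.28. So OCH1 and VRG4 were higher and MNN1 lower at the RNA level, which was not tested for the steps as a whole. In the same list MNN9 and MNN10 were not called, and MNT3 rose by 0.39.

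Of 22 genes for GPI anchor synthesis, 2 were higher, 3 lower and 17 not called, fewer calls than the 49.5% of all genes. The 3 lower genes, GPI10, GPI17 and MCD4, fell by 0.36, 0.31 and 0.25 on the log2 scale. Of 15 genes that support chitin synthesis or remove chitin, 3 were higher, 5 lower and 7 not called. BUD7 and BCH1 encode related parts of the exomer, the coat that carries Chs3 to the surface, and their log2 changes were 0.48 and -0.29. CTS1, the chitinase of cell separation, rose by 0.34. Of 20 other surface proteins and yapsins, 9 were higher, 5 lower and 6 not called. PLB2, a secreted phospholipase B, rose by 1.01 log2 units (42.4 and 42.3 CPM in WT, 85.4 and 84.6 CPM in nhp6ab). Its relative PLB1 fell by 0.77, and FIT2, a mannoprotein that retains iron carriers in the wall, fell by 1.42.

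Many wall genes are transcribed in waves of the cell cycle, and markers of these waves were counted too. Of 10 genes each, 3 were higher and 2 lower in the G1 wave, 5 higher and 1 lower in the mitotic wave, and 4 higher and 3 lower in the M/G1 wave. Median log2 changes were -0.02, 0.21 and 0.03 for the G1, mitotic and M/G1 lists. The G1 cyclin gene PCL1 rose by 1.85 log2 units, the M/G1 activator gene SWI5 by 0.60, and DSE2, a daughter-cell glucanase, by 0.61. Other genes fell, among them MNN1 of the G1 list (log2 -1.28) and EGT2 of the M/G1 list (log2 -0.29). The part of cell cycle stage in the wall gene results was not tested.

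Some wall genes differed between the nhp6ab libraries. The log2 ratio of nhp6ab replicate 1 to replicate 2 was 0.91 for CWP1, 0.39 for SLT2 and 0.38 for CRH1, and it was 0.25 for RLM1 and SED1, 0.24 for CHS3 and 0.22 for KRE6. Over all genes its median was 0.00, and 2.87% of genes reached 0.35, as did 3 of the 37 members (8.11%). In WT the widest gaps among members were those of FLO1 (-0.45) and CIS3 (0.32). For CWP1, SLT2, CRH1, CHS3, SUN4 and CHS1 the call depended on which nhp6ab library was used.

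**Figure D4:**
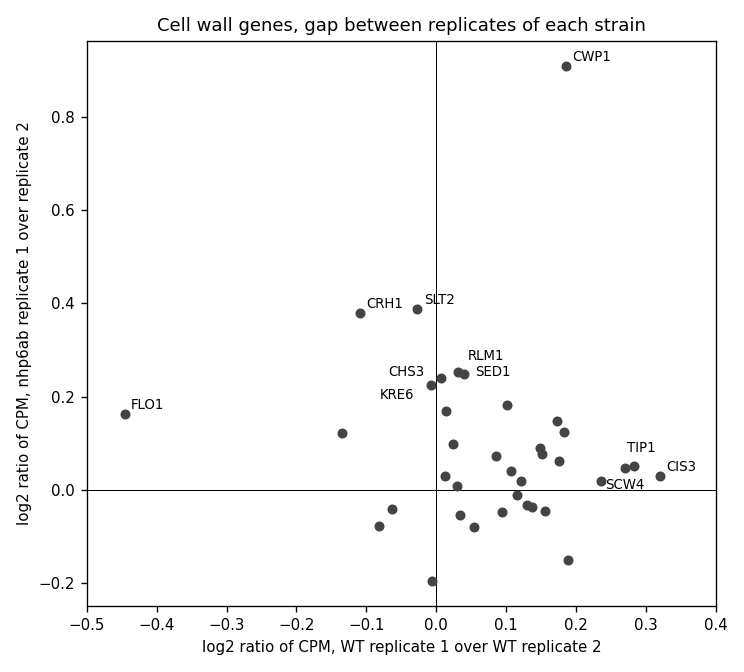
Log2 ratio of CPM between replicates for each of the 37 cell wall genes, with WT replicate 1 over 2 on the horizontal axis and nhp6ab replicate 1 over 2 on the vertical axis. CWP1 stands apart at 0.91 in nhp6ab, SLT2 and CRH1 follow at 0.39 and 0.38, and FLO1 has the widest WT gap at -0.45.

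How far the changes count as higher or lower depended on the scaling. With library size alone the median log2 change of all genes was 0.22 and that of the members 0.30, and 20 members were higher and 6 lower. On the log2(TPM + 1) scale the medians were 0.28 and 0.38, and 21 members were higher and 6 lower. Under both the 6 lower genes were CWP2, SPI1, YGP1, GSC2, UTR2 and EXG1. Over 13 alternative settings, 16 members were called in every one, these 6 and the higher CCW14, SED1, FKS1, GAS5, BGL2, SCW4, SCW10, FLO5, FLO9 and FLO11.

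**Figure D5:**
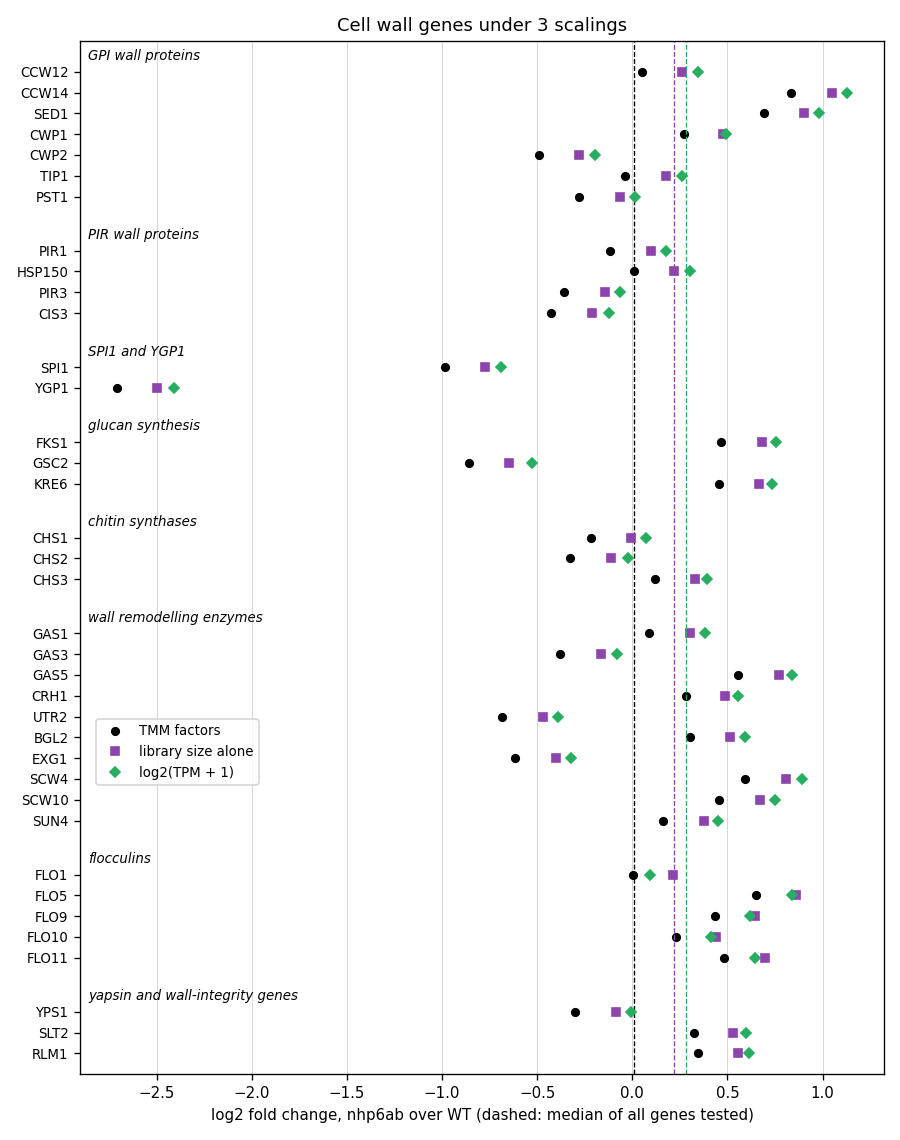
Log2 fold change of each cell wall gene with TMM factors, with library size alone and on the log2(TPM + 1) scale, with dashed lines at the median of all genes tested (0.01, 0.22 and 0.28). The scalings shift most members by a similar amount, though flocculins of low level such as FLO1 move less on the log2(TPM + 1) scale. Small decreases such as those of PST1, PIR3 and YPS1 move to near 0, while YGP1, SPI1, GSC2, UTR2, EXG1 and CWP2 stay below it.

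Features of the genes themselves are given by call as a description, with no test. The median coding length was 1743 bases for the 12 higher genes, 1341 for the 12 lower and 1455 for the 13 not called, and median GC content was 44.3, 42.5 and 45.3%. The median distance to the chromosome end was 67.3 kb for the higher genes, 286 kb for the lower and 213 kb for those not called. Nearest to an end, at up to 46.2 kb, lay FLO9, BGL2, FLO5, SCW4, SCW10 and FLO11 of the higher genes, and FLO10, FLO1 and GAS1 of those not called. Medians of the WT level were 68.7, 109 and 117 TPM. No annotated RefSeq gene overlapped any of the 37, and unmatched identifiers were not checked for overlap.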

How the data were processed

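Polyadenylated RNA of exponentially growing WT and nhp6ab yeast was sequenced, 2 libraries per strain, grouped by titles. Per the labels' protocols, RNA was extracted with phenol and chloroform for Illumina libraries. The authors deposited RSEM expected counts and RSEM TPM per gene, under those sheet names. Per the submitters' processing notes, the build was sacCer3. For the aligner, RSEM version, annotation and strand setting, no statement was found (not given in the sources used here). Whether reads of overlapping or antisense genes were told apart is therefore not known, and RSEM splits reads of near-identical genes by estimate.

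Of 6688 identifiers, 6005 matched RefSeq R64 (the same build), which gave symbols, coordinates and sequences; 683 did not match, and 4 lines without identifier were left out. Expected counts, rounded, went into edgeR 4.0.16 under R 4.3.3 (TMM, default filter with minimum count 10 and total 15, quasi-likelihood F test, 1 term for strain, leaving 2 residual degrees of freedom). Adjustment was over 6422 genes, with calls under an adjusted p of 0.05. Standard errors are the log2 fold change over the square root of F. CPM use TMM factors (0.924, 0.934, 1.06 and 1.10). Shared 50-base stretches and alignments (BLAST+ 2.17.0) marked near copies. Figures used Python 3.11.15 with matplotlib 3.10.9. The test was checked on simulated counts.

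Members, lists and tests were chosen with earlier results of these data known. Every member is named, in full for up to 4 per class with the smallest p, and up to 3 called genes per list. MFA1, MFA2, SDP1, SWI4, SWI6, GLK1, HSP42, TPS1, HXT5, SCW11 and the sum of 3 FLO genes were added after values were seen. SSR1, another name of CCW14, was dropped from a list. Same-numbered libraries did not deviate together (r = -0.07), so the numbers were not taken as pairs. Alternatives were DESeq2 1.42.0, limma 3.58.1 on log2(TPM + 1) and log2(TPM + 0.1), other scalings (DESeq2 size factors, upper quartiles, library size alone), other filters, a replicate block and leaving out each library. Some promoter elements and sites are not reported here.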

Additional observations from a re-analysis of the deposited data

How the results depend on the processing

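Of the 24 cell wall genes called, all kept their call and direction with DESeq2, its size factors, upper quartile factors, other filters and a replicate block (14 higher and 13 lower under the block, which added CHS1, CRH1 and SLT2, and 1626 and 1686 of all genes; same-numbered libraries did not deviate together). With library size alone 20 were higher and 6 lower (3023 and 800 of all genes), with log2(TPM + 1) 21 and 6 (3566 and 617), and with log2(TPM + 0.1) 21 and 6 (3558 and 614). The TPM settings change the test, the length correction and the scaling together, so the cause of their shift was not tested. Leaving out 1 library gave 10 to 17 higher and 8 to 14 lower, and 901 to 1462 and 1063 to 1557 of all genes. Without FLO1, FLO5 and FLO9, 10 were higher and 12 lower. Signs turned for genes near 0. TIP1 was 0.176 with library size alone and 0.263 and 0.264 with the TPM scales, PIR1 was 0.0969, 0.179 and 0.180, PST1 was 0.0158 and 0.0160 and CHS1 was 0.0714 and 0.0722 with the TPM scales. HSP150 was -0.00853 with upper quartile factors, and FLO1 was -0.00163 with DESeq2 and -0.0140 with upper quartile factors. Leaving out each library gave log2 changes of -0.0356 to 0.141 for CCW12, -0.261 to 0.656 for CWP1, -0.170 to 0.113 for TIP1, -0.0654 to 0.0836 for HSP150, -0.0125 to 0.236 for CHS3 and -0.212 to 0.233 for FLO1. The cause of each turn was not tested. With 2 libraries per strain, the spread behind each test rests on 2 residual degrees of freedom, and FLO1, with 54 to 81 counts, was measured least precisely.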
